A study of Mus musculus with 12 samples.

Results

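The strain difference in the Treg to Tconv change measures how far that change differs between NOD mice and their non-diabetic comparison strain. It was taken for every probe set as the log2 difference between regulatory T cells (Treg) and conventional T cells (Tconv) in NOD, minus the same difference in B6.H2g7, so that a positive value means a change more positive in NOD. All 12 arrays of the series entered it, 3 in each of the 4 groups. The Treg groups were splenic CD4+CD25hi cells and the Tconv groups splenic CD4+CD25- cells, both double-sorted free of CD8a, CD11b, CD69 and B220 after a magnetic CD25 step. B6.H2g7, shortened to B6g7, is a B6 line made congenic for H2g7, the MHC of NOD with the class II molecule Ag7, so all 4 groups carried that MHC. Each array held pooled RNA of 3 mice at 6 weeks of age. The pools of a population were independent, per the series text. The labels give no sex.

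Treg cells are CD4+ T cells that hold back other immune cells. The transcription factor Foxp3 maintains their programme, and they carry CD25, the alpha chain of the IL-2 receptor, and the inhibitory receptor CTLA-4. NOD mice develop autoimmune diabetes spontaneously as T cells infiltrate the pancreatic islets.

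On restaining, Foxp3+ cells made up 94%, 96% and 96% of the B6g7 Treg sorts and 89%, 95% and 95% of the NOD Treg sorts, per the labels. Array medians lay between 83.9 and 88.6 intensity units. Foxp3 and Il2ra, which encodes CD25, separated Treg from Tconv arrays in both strains, with log2 levels of Foxp3 between 10.67 and 11.26 in Treg arrays and between 5.57 and 6.24 in Tconv arrays. Cd3e stood between 12.12 and 12.48 in the group means. Itgam, which encodes CD11b, was between 4.62 and 4.79, below 5.28, the level that 25% of probe sets do not reach on average. Group means below that level are called dim here, and no fold is given for them. In bulk RNA, a change in the share of cells that carry a transcript and a change in the amount per cell cannot be told apart.

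A strain difference was called for 42 of 45037 probe sets, 0.0933% of those tested (limma, Benjamini-Hochberg adjusted p under 0.05). The change was more positive in NOD for 24 of them (0.0533%) and more negative for 18 (0.04%). By the brightest probe set of each gene, 20 of 18193 genes were called, 0.11%, of which 11 were more positive (0.0605%) and 9 more negative in NOD (0.0495%). Another 11 genes were called by a dimmer probe set alone. These are Matn2, Greb1, Neo1, Cybrd1, Kcnf1, Tnnt2, Gsto1, Hdac9, Speg, Tcf7l1 and Klf12. They fall outside the rule for named genes and were chosen after their values were seen. The called strain differences measured 0.77 to 3.45 log2 units in size, with a median standard error of 0.18, against 0.17 over all probe sets. The largest strain difference that was not called was 1.81. At an unadjusted p under 0.05 there were 2043 probe sets.

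Each of the 42 had a called Treg to Tconv change in at least 1 strain, in different forms. In 11 the change was called higher in Treg in both strains and differed in size, and in 1 it was called lower in both. In 10 it was called higher in Treg in B6g7 and not called in NOD, and in 10 called lower in B6g7 and not called in NOD. In 7 it was called higher in NOD alone and in 2 lower in NOD alone. In 1 probe set, for Il18r1, it was called in opposite directions. The levels of the strains differed in Treg but not by a called amount in Tconv for 20 probe sets, in both populations for 17, and in Tconv without a call in Treg for 5. Over all probe sets, Treg against Tconv was called for 3.37% in B6g7 (2.04% higher, 1.34% lower) and for 3.2% in NOD (2.09% higher, 1.11% lower). NOD against B6g7 was called for 2.96% in Tconv (1.31% higher, 1.65% lower) and for 3.26% in Treg (1.6% higher, 1.66% lower).

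A Treg change averaged over the strains was called for 5.84% of probe sets, 3.45% higher and 2.4% lower in Treg. Of these 2632, 38 (1.44%) were called for the strain difference, against 4 of 42405 others (0.00943%). The average and the strain difference are orthogonal contrasts in this balanced design, though both use the same estimate of spread. A change confined to a single strain moves both contrasts alike, so most such probe sets are called in both by construction. These shares therefore do not test whether strain differences favour genes that change in Treg. The 4 others were Il18r1, Bcl2l15 and both probe sets called for Btbd11. Of the called probe sets higher in Treg on average, 16 of 27 were more negative in NOD, and of those lower in Treg, 9 of 11 were more positive. Over all probe sets with a called average the strain difference had no common direction. The NOD change was the smaller one for 49.6% of the 1552 probe sets higher in Treg and for 54.1% of the 1080 lower in Treg, against 52% of the probe sets with no called average.

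**Figure D1:**
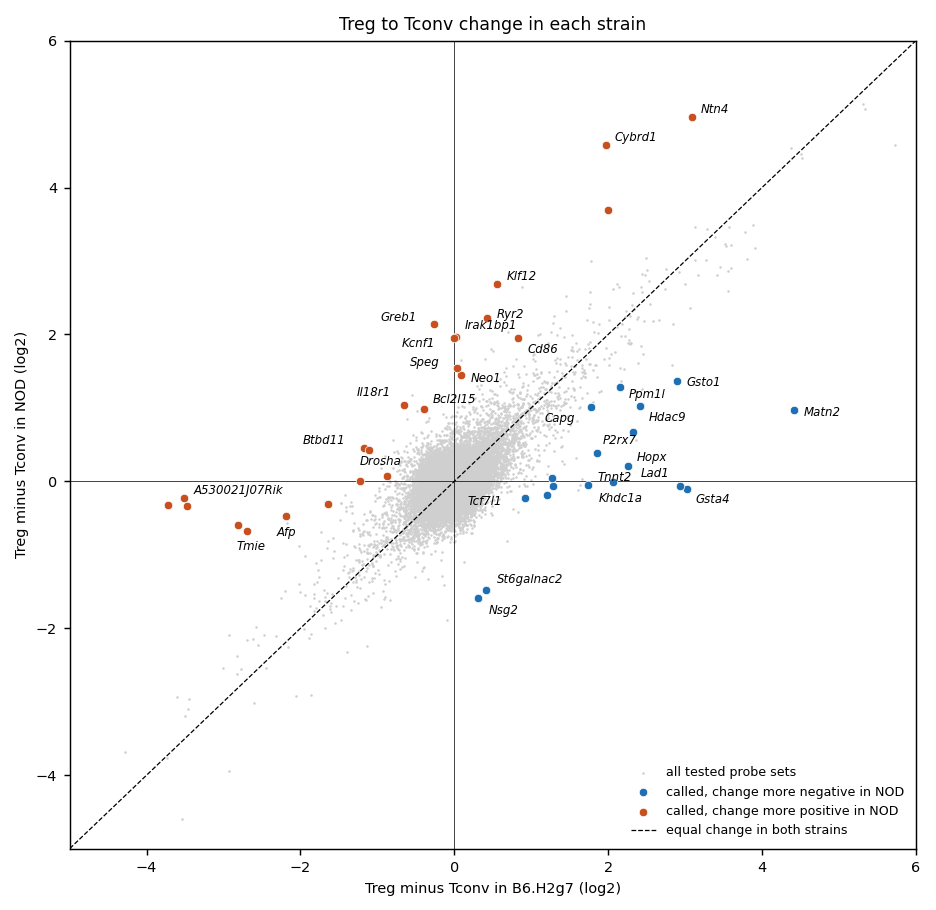
Treg minus Tconv log2 difference in B6.H2g7 (horizontal) and in NOD (vertical) for all tested probe sets (grey), with the 42 called for the strain difference in colour and the dashed line at equal change. Of the called probe sets, 24 lie above the line and 18 below it, and Il18r1 is the one with called changes in opposite directions.

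Among genes that rose in Treg in B6g7 and not by a called amount in NOD, Gsta4 had the smallest p-value of the whole table. Gsta4 encodes an alpha class glutathione transferase that conjugates products of lipid peroxidation. Its log2 levels were 9.33, 9.60 and 9.55 in the B6g7 Treg arrays and 6.57, 6.45 and 6.40 in B6g7 Tconv. In NOD they were 6.42, 6.26 and 6.48 in Treg and 6.54, 6.40 and 6.51 in Tconv. The B6g7 Treg arrays thus stood apart from the other 9 arrays, and the NOD Treg and Tconv arrays overlapped. Gsta4 was 8.10-fold higher in Treg in B6g7 and changed by -0.10 ± 0.10 log2 units (SE, n = 3 per group) in NOD, a strain difference of -3.12 ± 0.14 (adjusted p = 1.11e-06). It was the one of 27 measured glutathione transferase and glutathione genes whose brightest probe set was called. Over all genes 0.11% were called in this way. The gene lists were chosen with earlier results of these data known, so such counts, here and below, test nothing. Gsto1, an omega class member that also reduces dehydroascorbate, was called by 1 of its 2 probe sets and is described with the genes that rose in both strains.

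Hopx, a homeodomain protein without DNA binding of its own, reached 10.74, 10.88 and 10.90 in B6g7 Treg from 8.56, 8.39 and 8.78 in Tconv. The NOD arrays lay lower in both populations, at 7.96, 7.71 and 7.94 in Treg and 7.76, 7.52 and 7.69 in Tconv. No NOD array reached the lowest B6g7 array. The rise was 4.80-fold in B6g7, while NOD changed by 0.21 log2 units (adjusted p = 0.608), and the strain difference was -2.05 ± 0.16 (adjusted p = 9.94e-05). In Tconv itself NOD was 1.89-fold lower (adjusted p = 4.55e-04). Its second probe set gave -0.90 ± 0.25 (adjusted p = 0.765). Of 26 measured lineage factor genes Hopx was the one called.

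P2rx7, the ATP-gated cation channel of T cells, showed a similar form, on its brightest probe set from a like Tconv level in both strains. The B6g7 Treg arrays stood at 9.80, 9.51 and 9.95 and the B6g7 Tconv arrays at 7.95, 7.77 and 7.96. NOD Treg was at 8.06, 8.08 and 8.06 and NOD Tconv at 7.79, 7.65 and 7.58. Treg exceeded Tconv in each strain without overlap, by 3.64-fold in B6g7 and by 0.39 log2 units in NOD (adjusted p = 0.107). The strain difference was -1.47 ± 0.16 (adjusted p = 0.00171), the one call among 22 measured purinergic genes, the receptors and enzymes of extracellular ATP and adenosine. A second P2rx7 probe set gave -1.81 ± 0.32 (adjusted p = 0.0837) and the third 0.20. On the second the Tconv means were 6.12 in B6g7 and 7.09 in NOD, which differed by a called 0.97 (adjusted p = 0.0361), and the Treg means of 8.49 and 7.65 were not called as different (adjusted p = 0.0696). The same P2rx7 call is also the only one among 20 measured candidates of the Idd regions, the diabetes susceptibility regions of NOD. Over all genes 0.11% were called, and a link of the calls to these regions was not tested. In the list of Idd candidates Il21 had the next smallest p, with a strain difference of -1.79 ± 0.32 (adjusted p = 0.094).

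Lad1 encodes ladinin, an anchoring filament protein of epithelia. Its B6g7 Treg arrays were the most spread of the brighter genes, at 8.75, 9.81 and 10.18, and the other groups lay between 6.35 and 6.84. It was 7.65-fold higher in Treg in B6g7 and at -0.07 log2 units in NOD, with a strain difference of -3.0 ± 0.38 (adjusted p = 0.00629). Khdc1a, a KH domain gene known from oocytes and early embryos, rose from dim levels in the same strain, to 6.48, 5.97 and 6.15 in B6g7 Treg, with every other array between 3.95 and 4.33. Its strain difference was -2.07 ± 0.18 (adjusted p = 2.49e-04). Tnnt2, the cardiac troponin T gene, was called by 2 of its 3 probe sets, at -1.79 ± 0.19 and -1.22 ± 0.17, all 4 groups being dim in the first and 3 of them in the second. Its brightest probe set, at 5.59 to 5.83 in the group means, gave -0.20 ± 0.15. Tcf7l1, a TCF family factor of the Wnt pathway, was called by the dimmer of its 2 probe sets at -1.15 ± 0.17, and the brighter one gave 0.03. Of the unnamed probe sets, 1440040_at (-1.39) and 1446530_at (-1.34) had this form.

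**Figure D2:**
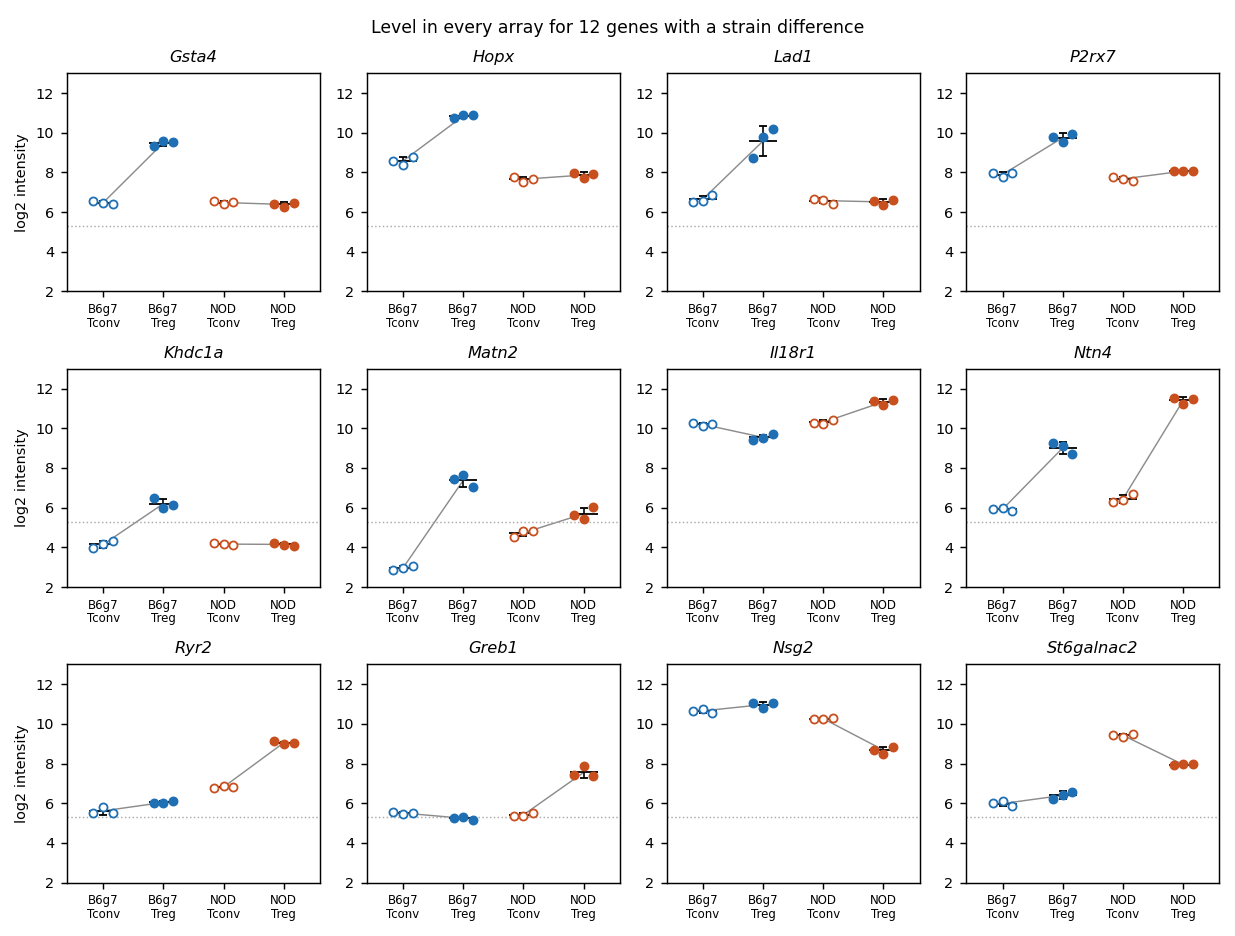
Log2 intensity on every array for 12 genes called for the strain difference, by group (open points Tconv, filled points Treg, blue B6.H2g7, orange NOD), with group means joined and bars of 1 SD (n = 3). The dotted line marks 5.28, the level below which a mean is called dim. In Gsta4, Hopx, Lad1, P2rx7 and Khdc1a the B6.H2g7 Treg arrays lie above the other arrays, and in Ntn4, Ryr2 and Greb1 the NOD Treg arrays do.

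In other genes the Treg rise was shared and larger in B6g7. Matn2, which encodes the extracellular matrix protein matrilin 2, had the largest strain difference of the table, -3.45 ± 0.24 (adjusted p = 6.12e-05), on its dimmer probe set. Its B6g7 Treg arrays read 7.45, 7.64 and 7.03 against 2.84, 2.97 and 3.05 in Tconv, and its NOD Treg arrays 5.64, 5.41 and 6.02 against 4.54, 4.82 and 4.82. Both Tconv groups were dim, and NOD minus B6g7 was 1.77 in Tconv and -1.68 in Treg on the log2 scale, so that the order of the strains was opposite in the populations. The brighter Matn2 probe set gave -0.54 ± 0.13 (adjusted p = 0.449).

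Gsto1 rose in both strains, from 7.51, 7.62 and 7.77 to 10.44, 10.40 and 10.77 in B6g7 and from 7.93, 8.06 and 8.31 to 9.35, 9.48 and 9.57 in NOD. That is 7.47-fold in B6g7 and 2.58-fold in NOD, with a strain difference of -1.53 ± 0.18 (adjusted p = 0.0035). Its brighter probe set gave -1.19 ± 0.25 (adjusted p = 0.219). Hdac9, a class IIa histone deacetylase, rose by 2.41 in B6g7 and 1.02 in NOD from dim Tconv levels (strain difference -1.40 ± 0.17), while its brightest probe set gave -0.18. Ppm1l, a magnesium-dependent protein phosphatase, rose 4.43-fold in B6g7 and 2.42-fold in NOD (-0.87 ± 0.13, adjusted p = 0.0256). Its Treg means were 9.39 in B6g7 and 9.71 in NOD, not called as different (adjusted p = 0.108), and its Tconv mean was 2.28-fold higher in NOD. Capg, an actin filament capping protein of the gelsolin family and a member of the Treg-associated list, rose 3.43-fold and 2.01-fold (-0.77 ± 0.12, adjusted p = 0.0467). Its other probe set gave 1.0 ± 0.36. Probe set 1429184_at, which names several genes, gave -1.66.

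The converse form, a shared rise larger in NOD, was seen for Ntn4, Ryr2, Cd86 and Cybrd1. Ntn4 encodes netrin 4, a secreted protein related to laminins. It rose from 5.94, 5.96 and 5.85 to 9.26, 9.10 and 8.68 in B6g7 and from 6.28, 6.39 and 6.67 to 11.52, 11.23 and 11.47 in NOD. The rise was 8.53-fold in B6g7 and 31.1-fold in NOD, and the strain difference was 1.87 ± 0.21 (adjusted p = 0.00216). Its other probe set, with a B6g7 mean of 5.03 in Tconv and 5.10 in Treg, gave 0.20. Of 26 measured netrin and semaphorin guidance genes, Ntn4 was called by its brightest probe set, and Neo1, which encodes the netrin receptor neogenin, by 1 of its other 4.

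Ryr2 encodes a calcium release channel of intracellular stores, best known from heart muscle. Its NOD Treg arrays read 9.11, 9.0 and 9.04 and its NOD Tconv arrays 6.76, 6.87 and 6.82. In B6g7 the values were 6.03, 5.99 and 6.10 in Treg and 5.52, 5.82 and 5.49 in Tconv. Every NOD array exceeded every B6g7 array. The rise was 4.70-fold in NOD and 1.35-fold in B6g7 (strain difference 1.80 ± 0.14, adjusted p = 8.38e-05), the one call among 22 measured calcium channel and store genes. Its other probe set gave 0.34. Cd86, whose protein on antigen presenting cells binds CD28 and CTLA-4, rose 3.85-fold in NOD and 1.78-fold in B6g7 (1.11 ± 0.17, adjusted p = 0.0251). Its NOD Treg arrays read 8.15, 7.89 and 8.15, above 7.59, 7.22 and 7.44 in B6g7 Treg. Its other probe set gave 0.07, and no other of 18 measured genes of the CD28 family and its ligands was called. Cybrd1, a ferric reductase of iron uptake, rose by 4.58 log2 units in NOD and 1.97 in B6g7 from dim Tconv levels, on the dimmer of its 2 probe sets (2.61 ± 0.23), and the brighter one gave 0.34. Probe set 1438466_at, which names several genes, gave 1.69.

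In 7 probe sets the level was higher in Treg in NOD, and no change was called in B6g7. Irak1bp1 encodes a protein that binds the kinase IRAK1 of interleukin 1 and Toll-like receptor signalling. Its NOD Treg arrays read 6.30, 6.46 and 6.26, and the other 9 arrays lay between 4.03 and 4.45, all dim (strain difference 1.95 ± 0.12, adjusted p = 2.58e-05). Its other probe set gave 0.16. Bcl2l15, a member of the BCL2 family of death regulators, read 6.92, 6.78 and 7.2 in NOD Treg, 5.85, 5.93 and 6.17 in NOD Tconv and 5.01 to 5.59 in B6g7. Its rise was 1.98-fold in NOD, with a strain difference of 1.39 ± 0.17 (adjusted p = 0.00593), the one call among 25 measured apoptosis genes.

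The other 5 of these were probe sets that were not the brightest of their gene. Greb1, an oestrogen-induced gene, read 7.41, 7.88 and 7.36 in NOD Treg, with all other arrays between 5.17 and 5.54 (2.40 ± 0.18, adjusted p = 8.31e-05). Kcnf1, a modulatory subunit of voltage-gated potassium channels, rose by 1.95 in NOD, where its Tconv level of 6.5 already exceeded the dim B6g7 levels of 4.53 in both populations (1.95 ± 0.21). Klf12, a Krüppel-like repressor, had the widest NOD Treg values, 7.47, 6.26 and 7.0 (2.13 ± 0.32, adjusted p = 0.0256). Speg, a kinase of striated muscle, gave 1.51 ± 0.20, and Neo1 1.37 ± 0.12 with all 4 groups dim. Other probe sets of Greb1 gave -0.19 to 0.63, those of Klf12 0.12 to 0.56 and those of Speg -0.21 to 0.28, and the brighter one of Kcnf1 gave 0.24. For Neo1 the others gave -0.01 to 0.87, none of them called, with 0.34 ± 0.32 on the brightest.

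Il18r1, the ligand-binding chain of the IL-18 receptor, was the gene with called changes in opposite directions. In B6g7 it fell in Treg, to 9.41, 9.52 and 9.69 from 10.25, 10.11 and 10.24. In NOD it rose, to 11.40, 11.17 and 11.43 from 10.28, 10.21 and 10.41. The Tconv arrays of the strains overlapped, and the Treg arrays did not. The fall was 1.58-fold (adjusted p = 0.00248) and the rise 2.05-fold (adjusted p = 7.19e-05), and the strain difference was 1.70 ± 0.15 (adjusted p = 2.25e-04). Il18r1 and Irak1bp1 were the 2 called of 26 measured genes of IL-1, IL-18 and Toll-like receptor signalling. The median strain difference of that list was 0.03.

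A fall called in NOD Treg and not in B6g7 was seen for 2 genes. Nsg2, a neuronal endosomal protein gene, read 8.69, 8.5 and 8.84 in NOD Treg and 10.26, 10.25 and 10.27 in NOD Tconv, a 3.00-fold fall. In B6g7 it read 11.03, 10.82 and 11.05 in Treg and 10.63, 10.76 and 10.57 in Tconv. The strain difference was -1.90 ± 0.15 (adjusted p = 8.38e-05), and the other Nsg2 probe set gave -0.99 ± 0.34. St6galnac2 encodes a sialyltransferase that caps O-linked glycans. It was far higher in NOD Tconv, at 9.44, 9.33 and 9.49, than in B6g7 Tconv, at 5.99, 6.09 and 5.86, and fell 2.78-fold in NOD Treg, to 7.91, 7.96 and 7.96. B6g7 Treg read 6.19, 6.41 and 6.58. Its strain difference was -1.89 ± 0.15 (adjusted p = 9.94e-05), the one call among 19 measured sialyltransferases, and its dimmer probe set gave 0.33 ± 0.14.

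The last group fell in B6g7 Treg from a Tconv level that NOD did not reach. Afp, the fetal serum protein alpha-fetoprotein, was called by 3 of its 5 probe sets. On the brightest of the 3 in B6g7 it read 8.82, 8.90 and 8.75 in Tconv and 6.03, 6.58 and 5.41 in Treg, while the NOD arrays read 2.84 to 3.78, all dim. The strain differences of the 3 were 2.22 ± 0.32, 1.71 ± 0.23 and 1.24 ± 0.18, and the 2 others, with all group means at 4.97 or below, gave 0.01 and 0.07. A530021J07Rik, an uncharacterised transcript, fell by 3.51 and 3.47 log2 units in B6g7 on its 2 probe sets, from 7.07 and 7.13, and was dim in both NOD populations, at 2.85 to 3.25. The unnamed probe sets 1456751_x_at (3.40) and 1460499_at (1.33) also fell in B6g7 Treg from a Tconv level that NOD did not reach. For A530021J07Rik, 1456751_x_at and the Afp probe set with array values above, NOD Tconv was already dim. A fall as large as in B6g7 could not have been seen there. Btbd11, a BTB domain gene, fell 2.25-fold in B6g7, from 10.43, 10.57 and 10.34 to 8.96, 9.63 and 9.22. In NOD it read 7.28, 7.81 and 7.58 in Tconv and 7.94, 8.06 and 8.06 in Treg. Its 3 probe sets gave 1.63 ± 0.23, 1.54 ± 0.25 and, not called, 1.13 ± 0.22.

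For 2 further genes the strains had like Treg levels and unlike Tconv levels. Tmie, a transmembrane protein gene of the inner ear, fell 6.43-fold in B6g7, from 10.69, 10.48 and 10.21 to 7.53, 7.98 and 7.81, and 1.59-fold in NOD, from 8.12, 8.29 and 8.23 to 7.31, 7.74 and 7.58. The strain difference was 2.02 ± 0.21 (adjusted p = 0.00138), and its other probe sets gave 0.65 and -0.21. Drosha, the nuclear RNase III of microRNA processing, fell 1.84-fold in B6g7, from 10.26, 10.35 and 10.27 to 9.31, 9.57 and 9.36. In NOD it lay between 9.35 and 9.64 on all 6 arrays (0.96 ± 0.14, adjusted p = 0.0263). A second Drosha probe set gave 0.57 ± 0.14 (adjusted p = 0.519), and Drosha was the one call among 15 measured microRNA processing genes.

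Some called genes lay near each other on a chromosome. Placed by the gene order of RefSeq, 3 pairs of the 31 genes had at most 10 protein-coding genes between them, and on the called probe sets both members of each pair had a strain difference of the same sign. By the brightest probe set Tnnt2 (-0.20), Greb1 (-0.19), Kcnf1 (0.24) and Tcf7l1 (0.03) were not called, and the signs of Greb1 and Kcnf1, and of Tcf7l1 and Capg (-0.77), were opposite. The pairs were found after the values were seen. How many such pairs any 31 genes would form, and how often their signs would match, was not tested. Lad1 and Tnnt2 are adjacent on chromosome 1, and on the called probe sets both rose in B6g7 Treg. None of the measured genes next to them was called, with strain differences of -0.05 for Tnni1, -0.14 for Phlda3, -0.12 for Csrp1 and 0.15 for Pkp1. Greb1 and Kcnf1 on chromosome 12 both rose in NOD Treg on the called probe set, with 4 genes between them, of which the 3 measured gave -0.40 to -0.20. Tcf7l1 and Capg on chromosome 6 both had the larger rise in B6g7 on the called probe set, and the 3 genes between them gave -0.09 to 0.13. No gene between a pair was called.

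The promoters of these pairs are shown because their called probe sets moved the same way, and that of Il18r1 because its change had opposite signs in the strains. Each is the 250 bases before a RefSeq transcription start in GRCm38.p6, 5′ to 3′ on the gene's strand, with motif matches in capitals. Greb1 and Tnnt2 have 2 listed starts each and Il18r1 has 3, and 1 is shown for each. For Tnnt2 and Il18r1 it is the one with a motif match, and their other windows had 0 matches.
Lad1 (chr1:135818348-135818597, + strand): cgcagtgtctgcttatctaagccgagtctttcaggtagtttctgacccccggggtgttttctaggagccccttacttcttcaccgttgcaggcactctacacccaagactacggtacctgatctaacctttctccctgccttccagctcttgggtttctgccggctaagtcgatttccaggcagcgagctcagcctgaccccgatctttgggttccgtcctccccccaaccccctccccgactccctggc
Tnnt2 (chr1:135836084-135836333, + strand): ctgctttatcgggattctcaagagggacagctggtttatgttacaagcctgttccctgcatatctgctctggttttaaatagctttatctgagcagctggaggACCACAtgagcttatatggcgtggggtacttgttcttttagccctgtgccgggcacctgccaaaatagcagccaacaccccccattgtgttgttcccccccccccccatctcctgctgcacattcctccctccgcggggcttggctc
Greb1 (chr12:16800887-16801136, - strand): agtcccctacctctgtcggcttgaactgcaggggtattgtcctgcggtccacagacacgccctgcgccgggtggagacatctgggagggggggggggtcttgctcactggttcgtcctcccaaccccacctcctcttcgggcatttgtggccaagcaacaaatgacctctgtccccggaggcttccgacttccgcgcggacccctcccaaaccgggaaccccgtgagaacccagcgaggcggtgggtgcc
Kcnf1 (chr12:17176889-17177138, - strand): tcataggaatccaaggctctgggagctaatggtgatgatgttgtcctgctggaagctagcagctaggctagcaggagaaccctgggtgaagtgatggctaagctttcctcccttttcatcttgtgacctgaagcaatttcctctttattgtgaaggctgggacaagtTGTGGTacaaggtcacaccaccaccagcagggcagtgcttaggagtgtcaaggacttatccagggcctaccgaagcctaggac
Tcf7l1 (chr6:72789046-72789295, - strand): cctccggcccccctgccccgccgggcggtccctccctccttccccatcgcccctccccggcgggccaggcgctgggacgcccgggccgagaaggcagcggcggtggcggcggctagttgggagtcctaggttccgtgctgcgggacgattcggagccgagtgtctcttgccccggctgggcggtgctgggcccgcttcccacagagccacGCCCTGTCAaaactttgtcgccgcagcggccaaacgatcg
Capg (chr6:72549397-72549646, + strand): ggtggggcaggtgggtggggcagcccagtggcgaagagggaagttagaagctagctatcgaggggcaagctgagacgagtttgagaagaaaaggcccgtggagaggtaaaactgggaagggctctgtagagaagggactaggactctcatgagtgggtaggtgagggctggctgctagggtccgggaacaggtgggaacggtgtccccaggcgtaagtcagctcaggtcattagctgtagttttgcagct
Il18r1 (chr1:40465756-40466005, + strand): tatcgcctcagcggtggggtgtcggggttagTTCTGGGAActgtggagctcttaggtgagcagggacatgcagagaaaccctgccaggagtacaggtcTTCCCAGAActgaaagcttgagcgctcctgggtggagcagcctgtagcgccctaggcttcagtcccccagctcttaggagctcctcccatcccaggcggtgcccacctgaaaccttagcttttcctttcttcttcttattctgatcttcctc

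The capitals mark, in Tnnt2 and Kcnf1, the RUNX motif TGTGGT on either strand, at 147 and 83 bases before the start. In Tcf7l1 they mark the antioxidant response motif TGACNNNGC at 40 bases, and in Il18r1 they mark 2 matches to the STAT motif TTCNNNGAA, at 219 and 152 bases. Lad1, Greb1 and Capg had no match in the windows shown. Of the 31 genes, 25 had a promoter entry, with 37 windows in all. Both strands of each window were searched. The forkhead motif GTAAACA was in 0 of the 37 windows, against 3.17% of 32851 windows of all genes. The STAT motif was in 2 (7.02% of all), the AP-1 motif TGANTCA in 4 (6.75%), the RUNX motif in 6 (14%) and the antioxidant response motif in 4 (10.2%). A match describes the letters and not a bound site, and windows of 1 gene can overlap.

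Many of the genes had further probe sets, and these measured the strain difference unequally. For 25 of the 31 genes there were 40 probe sets that were not called, of which 30 had the sign of the called one and 10 the opposite sign. At an unadjusted p under 0.05 there were 14, and 12 of them had the same sign. The 2 others were Capg, at 1.0, and St6galnac2, at 0.33. Those with the same sign included the second probe sets of P2rx7, Gsto1, Hopx, Nsg2, Btbd11, Drosha and Matn2. In a limma fit with the replicate number as a block, those of P2rx7, Btbd11 and Gsto1 passed (adjusted p = 4.11e-04, 0.00231 and 0.00626). In 7 of the 40, all group means were dim. Of the 42 called probe sets, 21 were dim in some group and 10 in 3 groups.

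**Figure D3:**
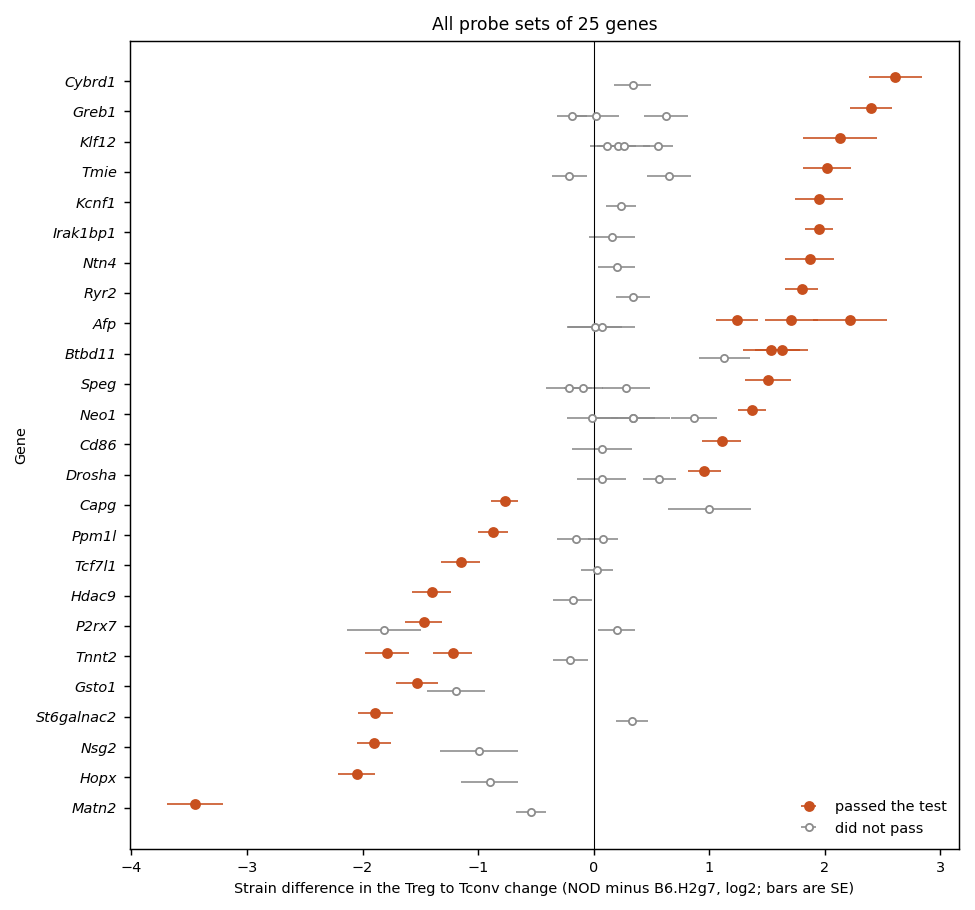
Strain difference (NOD minus B6.H2g7 Treg to Tconv change, log2) of every probe set of the 25 genes with a probe set that was not called. Called probe sets are orange and the others open, with bars of 1 SE. In Hopx, Gsto1, Nsg2 and Btbd11 all probe sets lie on the same side of 0, and in Capg, St6galnac2 and Tmie they lie on both sides.

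The 10 genes of next smallest p, which did not pass the test, had adjusted p-values of 0.0658 to 0.146. In the fit with the replicate number as a block, all but Tlr1 and Dsp passed (adjusted p = 0.0122 to 0.046). The labels do not state that these numbers pair arrays. Among them Il21, the cytokine of follicular helper T cells, read 8.58, 8.10 and 7.42 in NOD Tconv and 5.95 to 6.51 in every other array (strain difference -1.79 ± 0.32, adjusted p = 0.094). Ly6e, a GPI-anchored protein induced by interferon, was lower in NOD in both populations and changed by 1.22 in B6g7 against 0.21 in NOD (-1.01 ± 0.19). Il17rb, a receptor chain for IL-25, gave 0.86 ± 0.15 and Tlr1, a Toll-like receptor for bacterial lipopeptides, -0.80 ± 0.15. The remaining 6 were Adamts20 (0.85), Mei4 (-1.63), Prelid2 (-1.51), Pla2g4f (1.23), Phactr2 (-1.27) and Dsp (1.56).

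None of the 12 Treg and T cell genes looked at by name had a called strain difference, and the width of their intervals differed. Foxp3 rose 39.9-fold in B6g7 and 35.3-fold in NOD, a strain difference of -0.18 with a 95% interval of -0.78 to 0.43. Il2ra rose 40.4-fold and 33.5-fold (-0.27, -0.58 to 0.04). Ikzf4, which encodes the factor Eos, gave -0.05 and the integrin gene Itgb8 0.16. Ctla4 allowed the least precision, at -0.79 with an interval of -2.31 to 0.74, since its arrays spread widely, from 10.13 to 11.92 in NOD Treg and from 10.74 to 12.09 in B6g7 Treg. Il7r (-0.12), Il2 (0.00) and Cd4 (0.21) did not pass either.

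In 4 of these genes the unadjusted interval left out 0 on the negative side. Nrp1, the semaphorin receptor neuropilin 1, rose 11.8-fold in B6g7 and 7.30-fold in NOD (-0.69, interval -1.01 to -0.36, adjusted p = 0.284). Tnfrsf18, which encodes GITR, rose 3.12-fold and 2.01-fold (-0.63, interval -0.99 to -0.28, adjusted p = 0.581). Ikzf2, which encodes Helios, rose 15-fold and 9.01-fold (-0.74, interval -1.32 to -0.16, adjusted p = 0.962). In these 3 genes the Tconv level was higher in NOD by a called amount, 0.75 log2 units for Nrp1 (adjusted p = 0.00101), 0.62 for Tnfrsf18 (adjusted p = 0.00868) and 0.76 for Ikzf2 (adjusted p = 0.0492). Their Treg levels differed between the strains by 0.07, -0.01 and 0.02. Cd69, an early activation marker that the sort selected against, gave -0.53 (interval -1.0 to -0.06, adjusted p = 0.962). Its Treg to Tconv change was called in neither strain, and NOD was higher by a called amount in both populations, by 1.28 in Tconv (adjusted p = 2.89e-04) and 0.75 in Treg (adjusted p = 0.0153).

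Across 22 lists of pathways and functions, 13 held a gene with a called probe set, and no list had more than 2. Over all genes, 20 of 18193 were called by the brightest probe set, 0.11%. Lists and members were chosen with earlier results of these data known. Counts of calls in a list, here and above, are therefore descriptive and test nothing. Of 33 measured Treg-associated genes, Capg was called and 24 had a negative strain difference, with a list median of -0.23, against -0.03 over all 18193 genes, of which 10163 were negative. Of 32 cytokine receptor and JAK-STAT genes none was called and 25 were negative (median -0.15). None of the 26 T cell receptor signalling genes was called, 20 being negative (median -0.18), and none of the 24 immediate early genes, with 18 negative (median -0.18). In the immediate early list Fosl2 stood out on the other side, at 0.73 ± 0.17 (adjusted p = 0.409). Medians of the cell cycle (0.03), interferon response (-0.04) and TNF receptor (0.03) lists lay near that of all genes, with 0 calls among 26, 26 and 20 genes.

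The list medians moved with brightness and with the setting. With the genes in 10 equal classes by brightness, the median strain difference was -0.12 in the brightest class, with a median SE of 0.19, and 0.01 in the dimmest. The median T cell receptor signalling gene fell in the brightest class. With array weights the medians were -0.13 (Treg-associated), -0.09 (JAK-STAT), -0.03 (T cell receptor signalling) and -0.0 (immediate early). The immediate early median ran from -0.36 without NOD Treg replicate 1 to -0.01 without NOD Treg replicate 2. RNA shortening raises the log2 signal of a transcript's 3' end over its 5' end. For the actin controls this excess lay between 2.66 and 4.70 over the arrays and had a strain difference of 0.63 itself. For the gapdh controls the latter was 0.19. Their part in the list medians was not tested beyond a fit with the actin value as a covariate. There the medians were -0.25, -0.13, -0.08 and -0.05, with the lists in the order above.

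**Figure D4:**
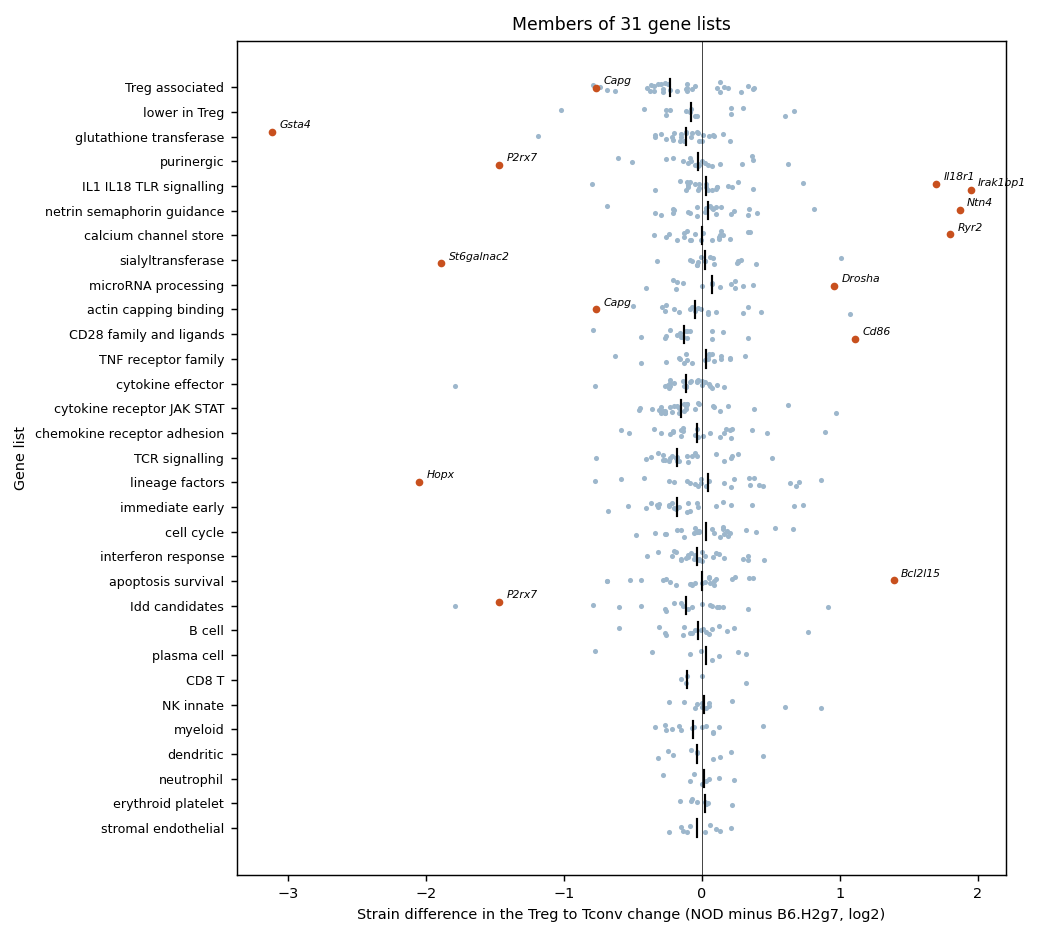
Strain difference (NOD minus B6.H2g7 Treg to Tconv change, log2) of the measured members of 31 gene lists by their brightest probe set, called genes in orange with their names and list medians as black ticks. The Treg associated median is at -0.23 and the median of all 18193 genes is -0.03.

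Markers of cells that the sort should leave out gave no call. Over 9 lists, covering B lineage, CD8 T, NK, myeloid, dendritic, neutrophil, erythroid, platelet, stromal and endothelial cells, 94 genes were measured, 0 were called by limma and 6 had an unadjusted p under 0.05. Their strain differences ranged from -0.78, for Irf4, to 0.86, for Eomes, both of which T cells also express. Over all genes 0.11% were called, so 0 calls among 94 genes says little about such cells. Over all probe sets, 2043 of 45037 had an unadjusted p under 0.05. The summed B cell markers lay at 11.46 to 11.48 in B6g7 Tconv, 11.66 to 11.84 in B6g7 Treg, 11.50 to 11.66 in NOD Tconv and 11.78 to 12.01 in NOD Treg on the log2 scale. Of these markers H2-Aa and Cd72 gave strain differences of 0.77 and -0.60. Cd8a had group means of 7.29 to 7.62 and a strain difference of -0.15. The part of any such cells in the called genes was not tested.

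The calls differed in how far they rested on single arrays. Of the 42, 27 passed in all 12 fits that left out 1 array, among them Gsta4, Irak1bp1, Ryr2, Nsg2, St6galnac2, Hopx, Il18r1, Khdc1a, P2rx7, Ntn4, Bcl2l15 and Lad1. Lad1 kept estimates of -3.42 to -2.70 in these fits. The number called fell to 27 without NOD Treg replicate 3 and lay between 29 and 38 without each other array. It was 35 without NOD Treg replicate 1, the array from the sort with 89% Foxp3+ cells. Each of the other 15 failed without at least 1 array. Capg passed only without B6g7 Treg replicate 3, and the second Btbd11 probe set only without B6g7 Treg replicate 1, with adjusted p-values of up to 0.178 and 0.183 in the other fits. Cd86, Klf12, Ppm1l, Drosha and 1438466_at passed in 2 of the 12 fits each, with adjusted p-values of up to 0.115, 0.119, 0.115, 0.116 and 0.179. For 1440040_at it was 3 fits (up to 0.142), for Tcf7l1 and the second Afp probe set 4 (up to 0.098 and 0.093), and for the second Tnnt2 probe set and 1460499_at 5 (up to 0.0747 and 0.0917). The first Btbd11 probe set and the third of Afp passed in 6 (up to 0.0888 and 0.098). The first Afp probe set failed without B6g7 Tconv replicate 2, B6g7 Treg replicate 3 and NOD Treg replicate 3 (up to 0.0665). Probe sets of a gene are counted here by rising p-value. No estimate changed sign in any of these fits.

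**Figure D5:**
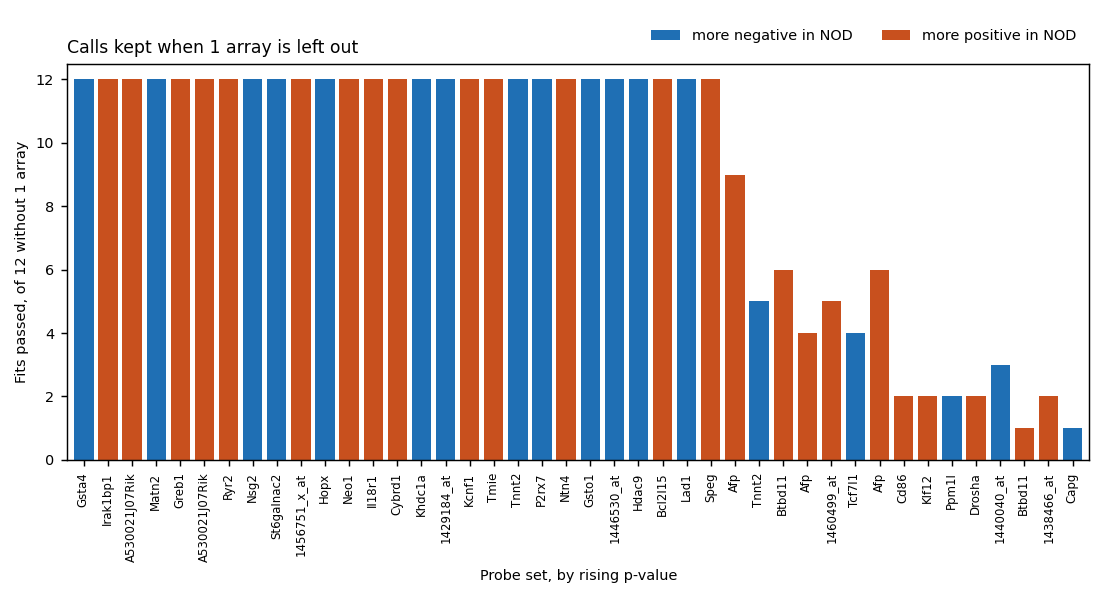
Number of the 12 fits leaving out 1 array in which each called probe set passed (adjusted p under 0.05), in order of rising p-value, blue for a change more negative and orange for one more positive in NOD. The first 27 passed in all 12 fits, and Capg and the second Btbd11 probe set passed in 1.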

How the data were processed

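RNA of splenic Treg and Tconv was measured on 12 Affymetrix arrays. Per the labels' protocols, total RNA was amplified in 2 rounds before biotin labelling. The deposited values are linear intensities per probe set. They were RMA normalized, per the submitters' processing notes and the series text, with software not given in the sources used here. Log2 was taken of these deposited intensities, with no further normalization or filter. Of 45101 probe sets, 64 controls were left out. Of the 45037 tested, 34945 name 1 gene in the platform annotation, 932 several and 9160 none, and no gene is named from the latter. The brightest probe set naming a gene alone stands for it. For genes with a called probe set, the other probe sets are described with it or plotted. Genes without a call are described by their brightest probe set only, and their other probe sets are not shown. An offset between strains that is equal in Treg and Tconv on the log2 scale cancels in the strain difference. An unequal one does not. Whether sequence differences between the strains under the probes affected any strain difference was not tested.

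The fit was limma 3.58.1 in R 4.3.3 (a mean per group, default eBayes, 12 arrays, 4 groups of 3). Benjamini-Hochberg adjustment ran over all probe sets, with calls at an adjusted p under 0.05. The same fit gave the change in each strain, the strain comparison in each population and the averaged change. Precision is limited by the number of arrays.

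The text names each gene called by its brightest probe set, the 10 genes of next smallest p, 12 Treg and T cell genes, and from the gene lists the called members and some of those of smallest p. Members and lists were chosen with earlier results of these data known. Lists are described by counts and medians. Promoter sequences and gene order are from RefSeq (GRCm38.p6). Alternatives were a replicate block, quantile normalization, the brighter probe sets, trend and robust variance, array weights, ratios of mean intensities, an adjusted p of 0.1, other probe sets of a gene, and leaving out arrays or replicate numbers. A fit with the actin 3' minus 5' difference was chosen after seeing the data.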

Additional observations from a re-analysis of the deposited data

Results flagged for a closer look

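The change from Tconv to Treg was tested for a difference between NOD and B6g7 at every probe set, and each probe set that passed (limma, Benjamini-Hochberg adjusted p under 0.05) is listed with its strain difference in log2 units. More positive in NOD were Irak1bp1 (1.95), A530021J07Rik (3.29 and 3.15), Greb1 (2.4), Ryr2 (1.8), 1456751_x_at (3.4), Neo1 (1.37), Il18r1 (1.7), Cybrd1 (2.61), Kcnf1 (1.95), Tmie (2.02), Ntn4 (1.87), Bcl2l15 (1.39), Speg (1.51), Afp (1.71, 2.22 and 1.24), Btbd11 (1.63 and 1.54), 1460499_at (1.33), Cd86 (1.11), Klf12 (2.13), Drosha (0.96) and 1438466_at (1.69). More negative in NOD were Gsta4 (-3.12), Matn2 (-3.45), Nsg2 (-1.9), St6galnac2 (-1.89), Hopx (-2.05), Khdc1a (-2.07), 1429184_at (-1.66), Tnnt2 (-1.79 and -1.22), P2rx7 (-1.47), Gsto1 (-1.53), 1446530_at (-1.34), Hdac9 (-1.4), Lad1 (-3.0), Tcf7l1 (-1.15), Ppm1l (-0.87), 1440040_at (-1.39) and Capg (-0.77). Names ending in _at are probe sets that name no gene or several. With 3 arrays per group, no group was tested for a sample that stands apart.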

How the results depend on the processing

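No called strain difference changed sign under another setting of the fit, with 1 array left out or as a ratio of mean intensities. The 42 calls (24 more positive, 18 more negative in NOD) became 17 (8 and 9) among the brighter probe sets, which tests fewer probe sets, 79 (49 and 30) with array weights and 71 (39 and 32) with the actin covariate, a fit chosen after seeing the data. They became 43 with quantile normalization, which lost Drosha, 1438466_at and Capg (adjusted p = 0.116, 0.0517 and 0.0567), and 42 with trend and robust variance, which lost Ppm1l and Drosha (0.0734 for both). At an adjusted p under 0.1 there were 52. The brighter-probe-set fit also lost the second Btbd11 probe set, 1438466_at and Capg (0.0794, 0.0794 and 0.0799). The same 42 passed with array weights and with the actin covariate. Without 1 array 27 to 38 were called (14 to 21 more positive, 13 to 19 more negative). Without the 4 arrays of replicate number 1, 2 or 3 in turn there were 31, 11 and 19 (17, 6 and 11 more positive, 14, 5 and 8 more negative), of which 26, 11 and 18 were among the 42, and 10 passed in all 3. These fits hold 2 arrays per group. The labels do not say that a replicate number pairs arrays, and the block was not used for the calls above. Of same-numbered pairs of arrays, 15 of 18 had deviations from their group means correlated above 0.1 (-0.21 to 0.671), against 10 of 36 other pairs (-0.652 to 0.41). The 3 exceptions were pairs of B6g7 Tconv replicate 2. With the replicate block 89 were called (53 and 36), the 42 included, with 8 of the 10 genes of next smallest p (all but Tlr1 and Dsp, adjusted p = 0.0122 to 0.046) and second probe sets of P2rx7, Btbd11 and Gsto1 (4.11e-04, 0.00231 and 0.00626). Other probe sets of the same gene had the opposite sign, none of them called, for Greb1 (-0.19), St6galnac2 (0.33), Neo1 (-0.01), Tmie (-0.21), P2rx7 (0.20), Speg (-0.09 and -0.21), Tcf7l1 (0.03), Ppm1l (0.08) and Capg (1.0). The cause was not tested for any of these changes. Dim levels leave the size of a change uncertain for the 21 called probe sets with a dim group.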
